A study of Mus musculus with 6 samples.

Results

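The genes described here are 36 mouse genes of glycolysis and of the response to low oxygen. Their list of symbols was chosen with earlier results of these data known. The symbols were matched to the gene identifiers of the count table, which holds 43629 mouse genes. All 36 were found. They fell into 22 genes of glycolysis (3 transporters, 16 enzymes and 3 regulators) and 14 genes of the hypoxia-inducible factor (HIF) response (3 for the factor and its oxygen sensors and 11 for other targets). The cells were M1, a neuroblastoma line of the mouse, and their poly-A RNA was sequenced in 6 libraries. All 6 came from cells grown in DMEM with fetal bovine serum and given doxycycline at 4 to 6 µg/ml for 6 days to switch on a short hairpin RNA. In 3 libraries the hairpin was non-targeting (shNT, genotype label WT), and in 3 it was directed against Igf2bp1, which encodes an RNA-binding protein (shIGF2BP1, genotype label IGF2BP1 knockdown). The design text names this as the one comparison. The labels give 1 hairpin against Igf2bp1 and do not say whether the cells were a clone or a pool, so the hairpin's effect and any other difference between the cell populations cannot be told apart. They also do not say whether replicates came from separate cultures, so p-values measure the spread over these 6 libraries only, part or all of which may be technical. The labels state no oxygen or glucose level for either group.

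Glycolysis splits glucose into pyruvate in the cytosol. Glucose enters through GLUT transporters, hexokinase traps it as a phosphate ester, phosphofructokinase commits it to the pathway, and lactate dehydrogenase can turn pyruvate into lactate, which leaves the cell through monocarboxylate transporters. Tumour cells often run this route even when oxygen is present. HIF-1 is a transcription factor whose alpha subunit is hydroxylated by oxygen-dependent prolyl hydroxylases and then degraded, so it builds up when oxygen is low. It binds DNA at a short core motif and raises transcription of many glycolytic genes and of genes for vessel growth, pH control, mitophagy and collagen hydroxylation. Much of the control of HIF-1α is on the protein, which RNA counts do not measure.

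The targeted transcript was checked first. For Igf2bp1 (ENSMUSG00000013415), replicates 1 to 3 of shNT gave 37, 175 and 201 counts, and those of shIGF2BP1 gave 67, 35 and 311. All values listed per library below follow this order. The groups overlapped, and the highest and the lowest count were both in libraries labelled shIGF2BP1. The log2 fold change was 0.25 ± 0.79 (SE, edgeR adjusted p = 0.966). It was -1.24 without shIGF2BP1 replicate 3, the library with 311 counts, and -0.18 without shNT replicate 1. It was -0.24 with limma-voom and -0.047 with the replicate block. Leaving out any other single library gave 0.43 to 0.76, and DESeq2, RLE factors, library size only and no filter gave 0.26 to 0.30. The direction of Igf2bp1 mRNA is therefore not determined by these libraries and a lower level was not shown, and every direction given below is that of the libraries labelled shIGF2BP1 relative to shNT. Library totals ran from 25119655 to 35373076 counts. The shNT replicate 3 library stood apart in that each of the other 5 libraries had its largest chi-square value per gene against it. Those values were 149 to 246, beside 46.1 to 159.8 over the 10 pairs without it, so the ranges overlapped. Of 16 neuroblastoma and sympathetic markers, 7 were expressed enough to test (Hand2, Gata2, Gata3, Isl1, Ddc, Mycn and Ncam1), while Th, Dbh and Chga had 0 counts in all 6 libraries. Summed fibroblast markers (9 genes) were 636 to 956 CPM (counts scaled to the library total with TMM factors) in shNT and 579.6 to 1059 CPM in shIGF2BP1, and summed endothelial markers (7 genes) were 37.4 to 54.5 and 31.5 to 73.8 CPM. Most of the endothelial sum was Pecam1, at means of 37.4 ± 9.50 and 52.0 ± 22.3 CPM (SD, n = 3 each), while Kdr had 9.94, 2.32 and 5.84 CPM in shNT and 1.37, 2.47 and 0.802 CPM in shIGF2BP1 (edgeR log2 fold change -1.95, adjusted p = 0.524), with overlapping groups. Most of the fibroblast sum was Col1a1 and Col3a1, at means of 319 and 329 CPM in shNT. Enough counts to test were found for 7 of the 9 fibroblast and 3 of the 7 endothelial markers. Lum, Emcn and Cldn5 had 0 counts in all 6 libraries, and Cdh5 had counts, 2, only in shNT replicate 2. Whether cells of these types were present in the cultures was not tested. In bulk RNA of this kind, fewer cells of a type and less RNA per cell cannot be told apart.

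None of the members passed the test between the groups. Of the 35 with enough counts to test, 28 had a negative log2 fold change and 7 a positive one, with a median of -0.28 on the log2 scale, beside 6925 negative values among 13445 genes tested (51.5%) and a median of -0.01. The edgeR quasi-likelihood test called 0 of the 35 at an adjusted p under 0.05, with adjusted p from 0.620 to 0.996. Over all genes tested it called 3, which is 0.0223%. At an unadjusted p under 0.05 edgeR gave 4 members lower and 0 higher, beside 3.99% of all genes lower and 3.17% higher. DESeq2, which called 0.61% of the genes it tested, and limma-voom also called 0 members, with smallest adjusted p of 0.233 and 0.730. The 6 values of a gene did not overlap between groups for 2 members, Hk2 and Ankrd37, both lower, beside 5.59% of all genes that were lower without overlap.

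The HIF genes had more negative values than the glycolysis genes, as numbers set side by side. Among the 22 glycolysis genes, 17 log2 fold changes were negative and 5 positive, with a median of -0.19 and a range from -0.90 to 0.24. Among the 13 HIF genes tested, 11 were negative and 2 positive, with a median of -0.58 and a range from -1.42 to 0.08. All 4 members with an unadjusted edgeR p under 0.05, Ankrd37, Ndrg1, P4ha1 and Ero1l, were HIF genes. The difference between the lists was not tested, and the lists were read only by counts and medians.

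**Figure D1:**
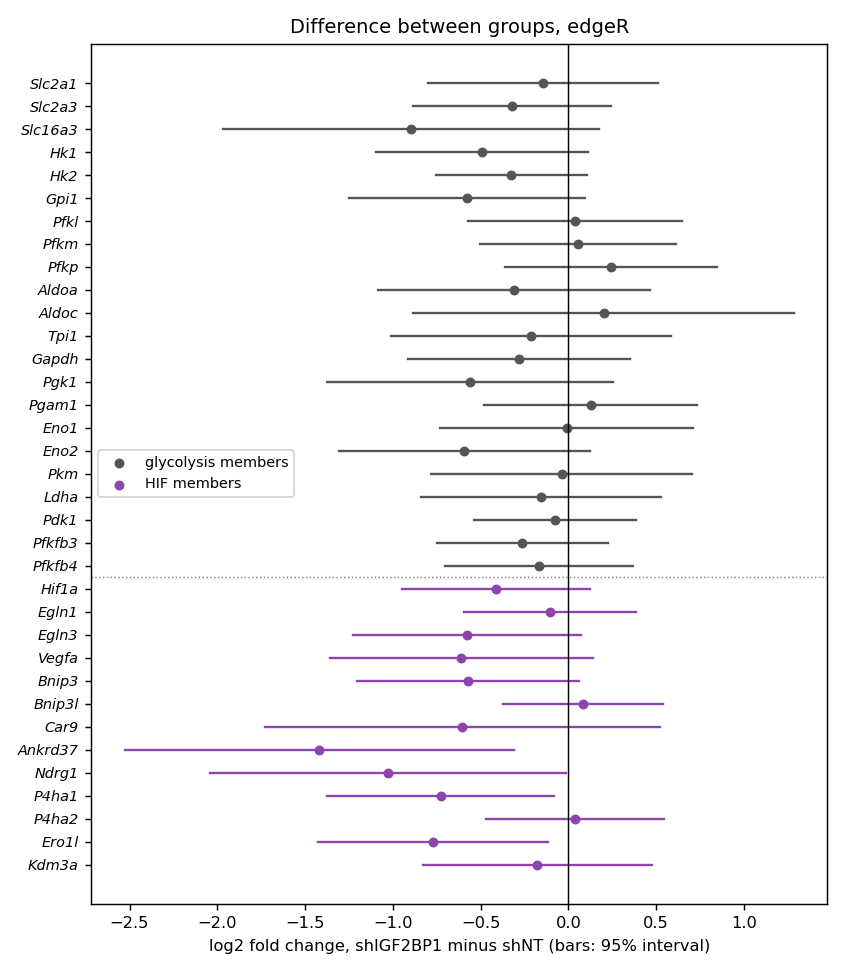
Log2 fold change (shIGF2BP1 minus shNT, horizontal axis) of the 35 tested genes as points with 95% intervals as bars, glycolysis genes above the dotted line and HIF genes below it. Most points lie left of 0, and the intervals of Ankrd37, Ndrg1, P4ha1 and Ero1l lie wholly below 0 before any adjustment for the number of genes.

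The precision was enough to bound many of these values. The standard errors ran from 0.20 to 0.49 on the log2 scale for glycolysis genes and from 0.21 to 0.51 for HIF genes. For 14 of 22 glycolysis genes the 95% interval lay within a 2-fold change in either direction, 7 reached below that bound and 1, Aldoc, reached above it. For 5 of the 13 HIF genes the interval lay within a 2-fold change, and for 8 it reached below. Differences smaller than these intervals were not detectable with 3 libraries a group.

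Levels were compared between genes per kilobase of the longest coding transcript, as the mean of the 6 libraries. Pkm, the pyruvate kinase gene, was the highest at 894 CPM per kilobase. It was followed by Eno1 (enolase) at 515, Aldoa (aldolase) at 506 and Ldha (lactate dehydrogenase) at 499 CPM per kilobase. The first 9 places were all held by glycolytic enzymes. Vegfa, at 61.2 CPM per kilobase, was the highest HIF target outside glycolysis, with Ero1l at 52.7, Hif1a at 51.1 and P4ha1 at 48.0 CPM per kilobase next. The lowest were Ankrd37 at 3.04, Car9 at 1.02, Slc16a3 at 0.653 and Adm at 0.0180 CPM per kilobase. Ranges over the 6 libraries overlapped for 34 of the 35 neighbouring pairs in this order, and only Slc16a3 and Adm, the last pair, were apart.

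**Figure D2:**
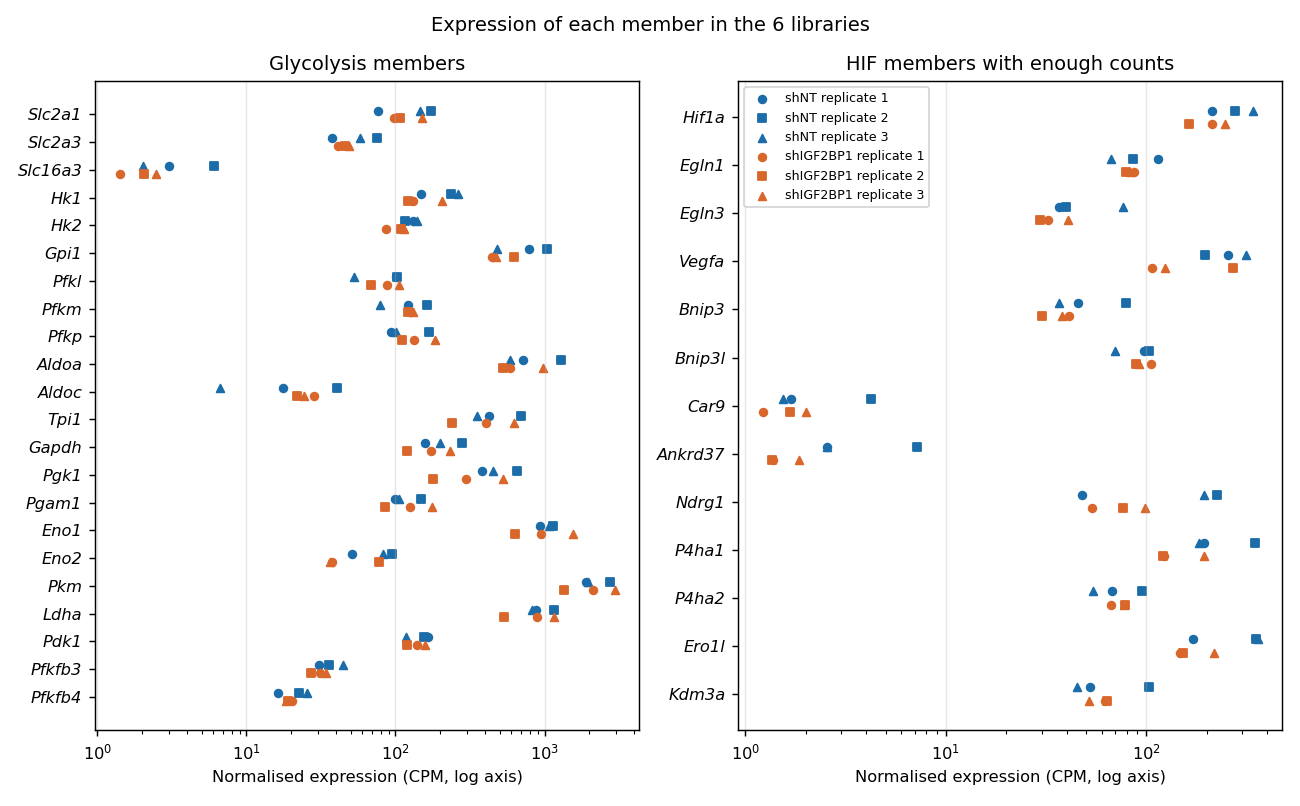
Normalised expression (CPM, log axis) of each tested gene in each library, glycolysis genes and HIF genes in separate panels. Colour gives the group and marker shape the replicate. The points of the groups are interleaved for nearly all genes, and for Hk2 and Ankrd37 all shIGF2BP1 points lie left of all shNT points.

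Glucose and lactate transporters came first in the pathway. Slc2a1, which encodes the GLUT1 glucose transporter, had 76.1, 172 and 146 CPM in shNT and 97.3, 107 and 152 CPM in shIGF2BP1. The groups overlapped fully, with the lowest and the highest library both in shNT, and the log2 fold change was -0.15 ± 0.30 (SE, edgeR adjusted p = 0.949). Slc2a3, the GLUT3 gene, had 37.2, 75.0 and 57.9 CPM in shNT and 41.2, 45.8 and 49.1 CPM in shIGF2BP1. Its shIGF2BP1 values sat between the lowest and the middle shNT value, at a log2 fold change of -0.32 ± 0.26 (SE, edgeR adjusted p = 0.856). Slc16a3, the lactate exporter MCT4, had only 3.00, 6.02 and 2.03 CPM in shNT and 1.41, 2.04 and 2.48 CPM in shIGF2BP1. Its log2 fold change of -0.90 ± 0.49 (SE, edgeR adjusted p = 0.765) was the most negative of the glycolysis genes, and it was -0.34 without shNT replicate 2, the highest library. The share of the GLUT pair that was Slc2a1, per kilobase, was 73.4% ± 2.05 in shNT and 75.7% ± 2.82 in shIGF2BP1 (SD, n = 3 each), with overlapping groups.

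Hexokinase traps glucose in the cell. Hk2, the hexokinase isoform that HIF-1 and growth signals induce, had 132, 115 and 140.1 CPM in shNT and 85.8, 109 and 114 CPM in shIGF2BP1. The 3 shIGF2BP1 values were all below the 3 shNT values, by a narrow gap between 114 and 115 CPM, and the log2 fold change was -0.33 ± 0.20 (SE, edgeR adjusted p = 0.788). Hk1, the isoform found in most cells, had 148, 235 and 262 CPM in shNT and 132, 122 and 205 CPM in shIGF2BP1. The highest shIGF2BP1 library lay between the shNT values, and the log2 fold change of -0.49 ± 0.27 (SE, edgeR adjusted p = 0.775) was -0.33 without shNT replicate 3. Hk1 made up 67.5% ± 7.15 of the pair per kilobase in shNT and 65.1% ± 5.50 in shIGF2BP1 (SD, n = 3 each), so the mix of the isoforms differed by less than the spread between replicates.

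The next steps convert and split the hexose phosphate. Gpi1, glucose-6-phosphate isomerase, had 789, 1033 and 482 CPM in shNT and 444, 627 and 473 CPM in shIGF2BP1. The first 2 shNT libraries were above every shIGF2BP1 library and the third was not, and the log2 fold change of -0.58 ± 0.30 (SE, edgeR adjusted p = 0.755) was -0.31 without shNT replicate 2. The 3 phosphofructokinase genes were close to 0 or slightly positive: Pfkl, Pfkm and Pfkp had log2 fold changes of 0.04, 0.06 and 0.24, with 95% intervals that stayed within 0.85 of 0. Pfkp, the platelet isoform, had 93.0, 168 and 100.3 CPM in shNT and 133, 110.5 and 184 CPM in shIGF2BP1, the most positive member. Pfkm made up 44.4% ± 2.38 of the phosphofructokinase transcripts per kilobase in shNT and 43.5% ± 5.01 in shIGF2BP1 (SD, n = 3 each), and Pfkp 31.3% ± 6.27 and 33.5% ± 3.66. Aldoa, the main aldolase gene, had 722, 1294 and 587 CPM in shNT and 589.7, 529.9 and 982 CPM in shIGF2BP1. Each group held 1 library well above its other 2, and the log2 fold change was -0.31 ± 0.35 (SE, edgeR adjusted p = 0.905). Aldoc, the aldolase of brain, was far lower, at 17.7, 40.3 and 6.62 CPM in shNT and 28.3, 21.7 and 24.4 CPM in shIGF2BP1. Its shNT libraries spread more widely than its shIGF2BP1 libraries, and the log2 fold change of 0.20 ± 0.49 (SE, edgeR adjusted p = 0.956) became -0.23 without shNT replicate 3.

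The triose phosphate steps gave a similar picture of wide spread and overlapping groups. Tpi1, triose phosphate isomerase, had 423, 695 and 349.7 CPM in shNT and 404, 240.0 and 621 CPM in shIGF2BP1. Pgk1, phosphoglycerate kinase, the first enzyme of the pathway to make ATP, had 379, 654 and 454 CPM in shNT and 299, 178 and 530.1 CPM in shIGF2BP1. For both genes the lowest library was shIGF2BP1 replicate 2 and the highest was shNT replicate 2. The log2 fold change of Pgk1 was -0.56 ± 0.37 (SE, edgeR adjusted p = 0.810), and it moved from -1.06 without shIGF2BP1 replicate 3 to -0.24 without shIGF2BP1 replicate 2. Gapdh, the enzyme between these 2 steps and a common reference gene, had 158, 279 and 200.4 CPM in shNT and 173, 119 and 233 CPM in shIGF2BP1. Its log2 fold change was -0.28 ± 0.29 (SE, edgeR adjusted p = 0.889), and the SD within each group, 61.6 and 57.1 CPM, exceeded the distance between the means of 212 and 175 CPM.

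The members for the last steps, Pgam1, Eno1, Eno2, Pkm and Ldha, overlapped between the groups. Pkm had 1898, 2749 and 1966 CPM in shNT and 2122, 1356 and 2957 CPM in shIGF2BP1. Its means were 2204 ± 473 and 2145 ± 801 CPM (SD, n = 3 each), and the log2 fold change was -0.04 ± 0.34 (SE, edgeR adjusted p = 0.989), which was 0.035 when scaled by library size only. Eno1 had 935, 1143 and 1066 CPM in shNT and 945, 629.6 and 1547 CPM in shIGF2BP1. The shIGF2BP1 libraries held both its lowest and its highest value, and the log2 fold change was -0.01 ± 0.33 (SE, edgeR adjusted p = 0.996), 0.06 by library size only. Eno2, the enolase of neurons, had 51.3, 94.7 and 81.9 CPM in shNT and 37.8, 77.0 and 36.3 CPM in shIGF2BP1. In Eno2 1 shIGF2BP1 library, replicate 2, lay among the shNT values, and the log2 fold change was -0.59 ± 0.33 (SE, edgeR adjusted p = 0.772). Ldha had 883, 1158 and 825 CPM in shNT and 886, 534 and 1151 CPM in shIGF2BP1. The log2 fold change of Ldha was -0.16 ± 0.31 (SE, edgeR adjusted p = 0.946). Pgam1, phosphoglycerate mutase, had means of 117 ± 26.4 and 128 ± 45.1 CPM (SD, n = 3 each), with overlapping groups. Ldhb, the other main lactate dehydrogenase gene and not one of the 36, made up 4.45% ± 1.39 of Ldha plus Ldhb per kilobase in shNT and 8.15% ± 2.47 in shIGF2BP1 (SD, n = 3 each). Those groups overlapped, and the exact two-sided permutation p was 0.2, where the smallest p that 3 against 3 allows is 0.1.

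The 3 regulators of the pathway had small negative values and overlapping groups. Pdk1, the kinase that shuts off pyruvate dehydrogenase, had 166, 155 and 118 CPM in shNT and 139.8, 119 and 157 CPM in shIGF2BP1. The groups overlapped fully, and the log2 fold change was -0.08 ± 0.21 (SE, edgeR adjusted p = 0.961), 0.004 by library size only. Pfkfb3, which makes the phosphofructokinase activator fructose 2,6-bisphosphate, had 30.9, 35.8 and 44.2 CPM in shNT and 31.2, 27.2 and 34.1 CPM in shIGF2BP1. Its log2 fold change was -0.26 ± 0.22 (SE, edgeR adjusted p = 0.865). As a share of the 4 Pfkfb genes per kilobase, Pfkfb3 was 44.9%, 44.4% and 49.5% in shNT and 40.6%, 40.4% and 43.9% in shIGF2BP1, with no overlap. The exact two-sided permutation p was 0.1, the smallest possible, and 0.45 after Benjamini-Hochberg adjustment over 27 such shares of 11 gene families. Pfkfb2, not one of the 36, made up 6.24% ± 0.486 in shNT and 8.59% ± 2.46 in shIGF2BP1 (SD, n = 3 each), higher without overlap, with the same exact permutation p and adjusted value. Pfkfb4, its relative induced by HIF-1, had 16.3, 22.5 and 25.5 CPM in shNT and 20.1, 18.9 and 18.3 CPM in shIGF2BP1, a log2 fold change of -0.17 ± 0.24 (SE, edgeR adjusted p = 0.928).

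As a sum, the enzyme genes differed more between libraries of 1 group than between the groups, and most of them moved together. This did not hold for each gene, as Hk2 did not overlap between the groups. Among the 16 enzymes, shNT replicate 2 was the highest of its group for 14, beside 30.5% of all genes tested. In the other group shIGF2BP1 replicate 3 was the highest for 13 of the 16, beside 34.5% of all genes, and shIGF2BP1 replicate 2 was the lowest for 13, beside 37.3% of all genes. Their summed level was 6948, 10072 and 6755 CPM in shNT and 6617, 4929 and 9468 CPM in shIGF2BP1. The sum therefore spanned a wider range within shIGF2BP1 than the distance between the group means of 7925 ± 1862 and 7005 ± 2295 CPM (SD, n = 3 each). Within groups, the median SD of log2 CPM was 0.44 for the 21 glycolysis genes with a mean of at least 10 CPM and 0.28 for the 9624 genes tested at that level. The share of counts from mitochondrially encoded genes was 3.15%, 2.21% and 2.36% in shNT and 3.35%, 3.69% and 2.52% in shIGF2BP1. It was lowest within its group in shNT replicate 2 and in shIGF2BP1 replicate 3, the libraries where the enzymes were highest. It was highest in shIGF2BP1 replicate 2, where they were lowest. The order did not hold throughout shNT. There replicate 1 had the highest share, at 3.15%, and an enzyme sum of 6948 CPM, above the 6755 CPM of replicate 3. The part of this share in the result was not tested.

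**Figure D3:**
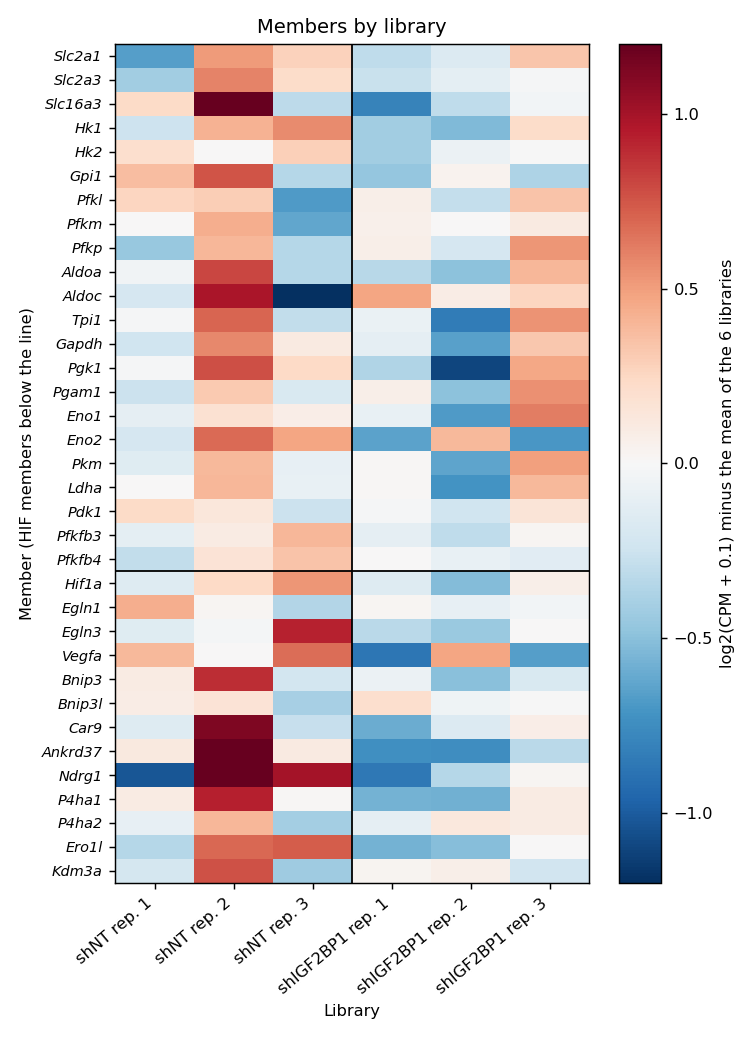
Heat map of log2(CPM + 0.1) of each tested gene minus its mean over the 6 libraries. Genes are in rows, HIF genes below the line, and libraries in columns. The enzyme rows are high in shNT replicate 2 and shIGF2BP1 replicate 3 and low in shIGF2BP1 replicate 2. Adm, which was not tested, is not shown.

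Several enzyme genes share sequence with copies elsewhere in the genome. Of the 53-base windows of the longest coding transcript, the read length used, 82.2% of Gapdh also lay in annotated transcripts of 206 other genes. For Eno1 the share was 71.4%, for Pgk1 67.9%, for Pgam1 41.4%, for Pkm 32.4%, for Gpi1 23.6%, for Pfkp 17.0%, for Ldha 14.4% and for Aldoa 11.6%. Among HIF genes it was 60.4% for Bnip3, 22.8% for Bnip3l, 14.3% for Ndrg1, 10.4% for Ankrd37, 7.06% for Hif1a and 4.82% for Car9, and it was 0% for P4ha1, P4ha2, Ero1l, Egln1, Egln3 and Kdm3a. How reads that fit more than 1 place or gene were counted is not stated. Counts of the genes with shared windows may therefore be split between genes and are uncertain. Gapdh, at 136 CPM per kilobase, had the largest shared part of the 36.

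The factor and its sensors make up the first HIF group. Hif1a, the oxygen-regulated subunit, had 211, 277 and 339 CPM in shNT and 211, 164 and 246 CPM in shIGF2BP1. The lowest shNT library and a shIGF2BP1 library were at the same level, and the log2 fold change of -0.41 ± 0.24 (SE, edgeR adjusted p = 0.780) was -0.24 without shNT replicate 3. Egln3, a prolyl hydroxylase sensor that HIF-1 induces, had 36.5, 39.7 and 76.5 CPM in shNT and 32.2, 29.6 and 40.5 CPM in shIGF2BP1. Its log2 fold change of -0.58 ± 0.29 (SE, edgeR adjusted p = 0.751) was -0.16 without shNT replicate 3, the library that stood apart. Egln1, the main sensor in most cells, had 115, 86.1 and 66.6 CPM in shNT and 86.6, 79.2 and 83.1 CPM in shIGF2BP1. The shIGF2BP1 libraries of Egln1 lay inside the shNT range, at a log2 fold change of -0.11 ± 0.22 (SE, edgeR adjusted p = 0.952).

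Ankrd37 had the most negative value of the 36. It encodes an ankyrin repeat protein and is a known HIF-1 target (ENSMUSG00000050914, GRCm38 chromosome 8, 45996902 to 46005707, minus strand). It had 2.56, 7.19 and 2.54 CPM in shNT and 1.37, 1.36 and 1.86 CPM in shIGF2BP1. All shIGF2BP1 libraries were below all shNT libraries, and shNT replicate 2 was far above the rest. The log2 fold change was -1.42 ± 0.50 (SE, edgeR adjusted p = 0.620), with a 95% interval from -2.53 to -0.31. Without shNT replicate 2 it was -0.74. Its exons overlap those of Ufsp2 and Lrp2bp on the opposite strand, and since the strand setting of the counting is not stated, reads of these genes cannot be told apart. The same holds for Ndrg1, whose exons overlap Gm17035 and Gm2895 on the opposite strand.

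Ndrg1, Ero1l and P4ha1 were the other 3 with an unadjusted edgeR p under 0.05. Ndrg1, a stress-response gene that HIF-1 induces (minus strand of chromosome 15, 66929318 to 66969640, ENSMUSG00000005125), had 47.7, 225 and 194 CPM in shNT and 53.6, 76.4 and 98.5 CPM in shIGF2BP1. The lowest library was in shNT, while its other 2 libraries were above all of shIGF2BP1. The log2 fold change was -1.03 ± 0.46 (SE, edgeR adjusted p = 0.695), from -1.45 without shNT replicate 1 to -0.67 without shNT replicate 2. Ero1l, an oxidase of the endoplasmic reticulum that helps form disulfide bonds (minus strand of chromosome 14, 45283087 to 45318771, ENSMUSG00000021831), had 171, 351 and 359 CPM in shNT and 147, 152 and 218 CPM in shIGF2BP1. Again 2 shNT libraries were above all of shIGF2BP1 and the first was among them, at a log2 fold change of -0.77 ± 0.30 (SE, edgeR adjusted p = 0.664) that was -0.60 without shNT replicate 3. P4ha1, the catalytic subunit of a collagen prolyl hydroxylase (plus strand of chromosome 10, 59323296 to 59373304, ENSMUSG00000019916), had 195, 347 and 183 CPM in shNT and 123, 121 and 194 CPM in shIGF2BP1. The highest shIGF2BP1 library was level with 2 of the shNT libraries, and the log2 fold change of -0.73 ± 0.29 (SE, edgeR adjusted p = 0.684) was -0.37 without shNT replicate 2.

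P4ha1 and P4ha2 are alternative catalytic subunits, and their mix was computed as a share of the pair. P4ha1 made up 61.9%, 67.1% and 65.4% of the pair per kilobase in shNT and 50.7%, 46.4% and 58.5% in shIGF2BP1. The groups did not overlap, at means of 64.8% ± 2.68 and 51.9% ± 6.16 (SD, n = 3 each). The exact two-sided permutation p was 0.1, the smallest that 3 against 3 can give, and 0.45 after Benjamini-Hochberg adjustment over the 27 shares of 11 gene families computed. P4ha2 itself had 67.2, 95.2 and 54.4 CPM in shNT and 66.8, 78.5 and 77.0 CPM in shIGF2BP1, a log2 fold change of 0.04 ± 0.23 (SE, edgeR adjusted p = 0.985). The mitophagy receptors Bnip3 and Bnip3l gave a like split. Bnip3 had 45.8, 79.3 and 36.7 CPM in shNT and 41.0, 30.2 and 37.7 CPM in shIGF2BP1, a log2 fold change of -0.57 ± 0.29 (SE, edgeR adjusted p = 0.745) that was -0.19 without shNT replicate 2. Bnip3l had 97.3, 103 and 69.7 CPM in shNT and 106, 88.3 and 91.6 CPM in shIGF2BP1, a log2 fold change of 0.08 ± 0.21 (SE, edgeR adjusted p = 0.958). The Bnip3 share of the pair was 51.7% ± 6.43 in shNT and 41.4% ± 2.29 in shIGF2BP1 (SD, n = 3 each), with no overlap and the same exact permutation p of 0.1 and adjusted value of 0.45. The windows that Bnip3 shares with other genes, and its exon overlap with Gm45507 on the opposite strand, make this share less certain.

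Vegfa, the main growth factor for vessels, had 256, 197 and 312 CPM in shNT and 107, 271 and 124 CPM in shIGF2BP1. Of the shIGF2BP1 libraries, replicates 1 and 3 were below all of shNT and replicate 2 was above 2 of the 3. The log2 fold change was -0.61 ± 0.34 (SE, edgeR adjusted p = 0.775) and -1.13 without shIGF2BP1 replicate 2. That library was the one with the lowest glycolytic enzymes, so Vegfa and the enzymes stood at opposite ends there. Kdm3a, a histone demethylase gene, had 52.2, 103 and 44.9 CPM in shNT and 61.9, 63.4 and 51.6 CPM in shIGF2BP1, with overlapping groups and a log2 fold change of -0.18 ± 0.30 (SE, edgeR adjusted p = 0.938). Car9 encodes a membrane carbonic anhydrase often used as a marker of hypoxia. It was low, at 1.69, 4.23 and 1.54 CPM in shNT and 1.22, 1.67 and 2.01 CPM in shIGF2BP1. The Car9 groups overlapped, at a log2 fold change of -0.605 ± 0.511 (SE, edgeR adjusted p = 0.8665). Adm, the gene of the peptide adrenomedullin, was not tested. It had 0 counts in each shNT library and 0, 4 and 1 counts in shIGF2BP1. In the libraries at 0, the limit that 0 counts allows is 3 counts, 0.0881 to 0.114 CPM.

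Summed over the 13 tested HIF genes, the level was 1299, 1913 and 1739.8 CPM in shNT and 1038, 1157 and 1265 CPM in shIGF2BP1. The groups did not overlap, though the gap between the lowest shNT library and the highest shIGF2BP1 library was small, and the means were 1651 ± 317 and 1153 ± 114 CPM (SD, n = 3 each). The few well expressed genes, Vegfa, Ero1l, Hif1a and P4ha1, carry most of that sum. Within shNT, replicate 2 was the highest for 8 of the 13 genes, beside 30.5% of all genes, and replicate 3 was the lowest for 8, beside 34.5% of all genes. Summed macrophage and leukocyte markers (10 genes, with Adgre1 and Cd3e at 0 in all libraries and most of the sum from Cd68) were also lower without overlap, at 8.29 to 15.6 CPM in shNT and 4.63 to 6.55 CPM in shIGF2BP1. Of the 3 tested genes of that list, Cd68 had 7.78, 14.7 and 13.1 CPM in shNT and 3.66, 5.56 and 3.14 CPM in shIGF2BP1 (edgeR log2 fold change -1.52, adjusted p = 0.403). The other tested genes were not lower: Fcer1g had 0, 0.176 and 0.0302 CPM in shNT and 0.382, 0.567 and 0.365 CPM in shIGF2BP1, higher without overlap, and Lyz2 had a log2 fold change of 0.06. Their part in the HIF values was not tested.

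The medians of the lists rested in part on single libraries. Without shNT replicate 2 the glycolysis median was -0.01 with 11 of 22 values negative, and without shIGF2BP1 replicate 2 it was -0.06 with 12 negative. Without shIGF2BP1 replicate 3 it was -0.40 with 19 negative. Scaling by library size only left 14 of the 22 negative, at a median of -0.12. The HIF median stayed between -0.67 and -0.37 with each library left out, with 9 to 13 of 13 values negative. Without shNT replicate 3, the library that stood apart, the glycolysis median was -0.24 with 19 of 22 values negative, and the HIF median was -0.44 with 13 of 13 negative.

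**Figure D4:**
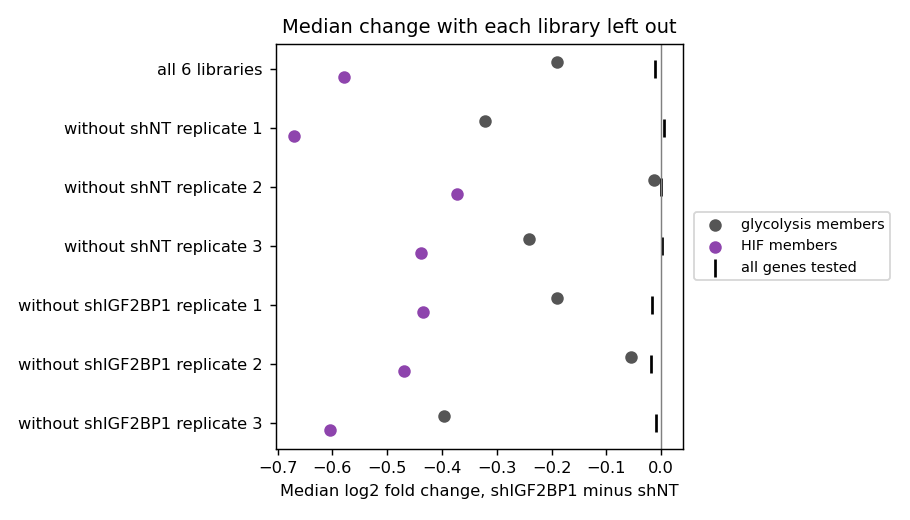
Median log2 fold change (horizontal axis) of the glycolysis genes, the HIF genes and all genes tested, with all 6 libraries and with each library left out in turn (rows). The glycolysis median comes close to 0 without shNT replicate 2 or shIGF2BP1 replicate 2, while the HIF median stays at or below -0.37.

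The promoters of the genes were read for the core letters that HIF binds, since these genes are grouped as its targets. The 250 bases before each RefSeq start (GRCm38.p6) were searched for ACGTG and GCGTG on either strand, where a palindromic CACGTG counts as a match on both. RefSeq windows matched 33 of the 36 genes, with 49 windows. Bnip3l, Slc2a3 and Ndrg1 were not matched. Shown are the 3 matched HIF genes with an unadjusted p under 0.05, Bnip3, whose share of its pair did not overlap between groups, and Ldha and Pgk1 as enzymes. They are Ankrd37 at chr8:45999851-46000100 on the minus strand, P4ha1 at chr10:59323046-59323295 on the plus strand, Ero1l at chr14:45318573-45318822 on the minus strand, Bnip3 at chr7:138909507-138909756 on the minus strand, Ldha at chr7:46845554-46845803 on the plus strand and Pgk1 at chrX:106186850-106187099 on the plus strand. Capitals mark ACGTG or GCGTG on either strand, so CACGT and CACGC are the same letters read from the other strand.
Ankrd37: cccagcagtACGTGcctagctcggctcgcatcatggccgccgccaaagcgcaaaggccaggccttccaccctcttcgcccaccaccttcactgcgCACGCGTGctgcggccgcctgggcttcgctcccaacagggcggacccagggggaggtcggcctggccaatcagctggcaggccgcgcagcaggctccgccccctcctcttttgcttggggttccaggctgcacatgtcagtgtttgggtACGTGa
P4ha1: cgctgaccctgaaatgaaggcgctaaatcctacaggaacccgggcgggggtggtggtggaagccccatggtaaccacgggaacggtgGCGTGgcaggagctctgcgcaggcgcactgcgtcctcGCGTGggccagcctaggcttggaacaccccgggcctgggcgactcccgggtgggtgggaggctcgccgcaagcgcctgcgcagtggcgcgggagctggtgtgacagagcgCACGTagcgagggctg
Ero1l: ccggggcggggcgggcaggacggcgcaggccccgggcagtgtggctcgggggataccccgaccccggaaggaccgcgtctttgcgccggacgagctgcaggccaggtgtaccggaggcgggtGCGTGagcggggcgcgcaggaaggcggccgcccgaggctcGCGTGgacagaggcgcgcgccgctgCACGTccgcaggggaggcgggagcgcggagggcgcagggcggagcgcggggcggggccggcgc
Bnip3: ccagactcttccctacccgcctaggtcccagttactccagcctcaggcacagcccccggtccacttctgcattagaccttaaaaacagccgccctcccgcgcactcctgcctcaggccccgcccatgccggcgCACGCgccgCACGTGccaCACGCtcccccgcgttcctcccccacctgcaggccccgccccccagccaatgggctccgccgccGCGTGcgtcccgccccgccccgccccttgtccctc
Ldha: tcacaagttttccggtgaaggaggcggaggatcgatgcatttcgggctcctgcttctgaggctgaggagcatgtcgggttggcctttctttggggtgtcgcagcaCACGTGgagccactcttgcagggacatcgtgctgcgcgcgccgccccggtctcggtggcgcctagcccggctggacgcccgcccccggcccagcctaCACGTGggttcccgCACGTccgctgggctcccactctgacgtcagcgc
Pgk1: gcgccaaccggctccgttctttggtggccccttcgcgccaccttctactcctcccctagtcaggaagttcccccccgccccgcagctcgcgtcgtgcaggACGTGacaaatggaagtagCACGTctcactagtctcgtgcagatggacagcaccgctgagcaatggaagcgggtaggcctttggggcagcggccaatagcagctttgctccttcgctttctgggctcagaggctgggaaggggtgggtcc

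Both motifs occurred in each of the 4 HIF windows shown, with 2 and 2 matches of ACGTG and GCGTG in Ankrd37, 1 and 2 in P4ha1, 1 and 2 in Ero1l and 2 and 3 in Bnip3. The Ldha window shown held 5 matches of ACGTG and 0 of GCGTG, and Pgk1 2 and 0. Ldha has another RefSeq start, whose window, not shown (chr7:46846832-46847081), held 0 and 1. Over all members, 38 of 49 windows (77.6%) held at least 1 of the motifs, beside 38.6% of all 32851 RefSeq windows. The windows of members were richer in G and C, at a median of 60.4% beside 52.4%. Among all windows with a GC content of at least 60% the share was 63.8%. Members were not cut at that GC content, so the 77.6% and the 63.8% are not over windows of like GC. Windows of a gene with several starts can overlap and were counted separately. For 42 of the 49 windows, bases just after the start matched an annotated transcript of the gene. The share with at least 1 motif was 12 of 15 windows (80.0%) for HIF genes and 26 of 34 (76.5%) for glycolysis genes. A match is a description of the letters, not of binding.

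Other genes of the same pathways, outside the 36, were read from further lists. Of 26 other transporter and enzyme genes of glycolysis, 13 were tested, with 0 called, 5 negative and 8 positive values and a median of 0.19. Slc2a5, a fructose transporter gene, had 9, 2 and 5 counts in shNT and 16, 22 and 18 counts in shIGF2BP1, higher without overlap (log2 fold change 1.88 ± 0.67 SE, edgeR adjusted p = 0.620), beside 6.06% of all genes. Ldhb had 40.3, 35.4 and 20.1 CPM in shNT and 57.0, 45.5 and 49.5 CPM in shIGF2BP1, also higher without overlap (log2 fold change 0.67 ± 0.27 SE, edgeR adjusted p = 0.684). Slc16a1, the lactate transporter MCT1, which made up 98.7% to 99.7% of the MCT1 and MCT4 pair per kilobase over the 6 libraries, had 829.8, 459.9 and 729 CPM in shNT and 461, 383 and 459 CPM in shIGF2BP1. The Slc16a1 groups overlapped narrowly, at a log2 fold change of -0.63 ± 0.27 (SE, edgeR adjusted p = 0.686).

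Pyruvate use and the pentose phosphate branch were tested in 14 of 17 and 8 of 8 listed genes, again with 0 called. In these lists 9 of 14 and 5 of 8 values were negative, with medians of -0.05 in both. Pdha1, the catalytic subunit of pyruvate dehydrogenase, had 409.7, 359.5 and 345 CPM in shNT and 213, 196 and 258 CPM in shIGF2BP1. All shIGF2BP1 libraries were well below all shNT libraries, at a log2 fold change of -0.74 ± 0.21 (SE, edgeR adjusted p = 0.497). Pdk1, the gene of its kinase, overlapped fully. G6pdx, the entry enzyme of the pentose phosphate branch, had 119, 121 and 85.0 CPM in shNT and 69.3, 76.1 and 82.9 CPM in shIGF2BP1, lower without overlap (log2 fold change -0.51 ± 0.20 SE, edgeR adjusted p = 0.684). The other genes taken by the rule were Pcx (0.46) and Mpc2 (-0.29) for pyruvate and H6pd (0.29) and Rpe (-0.27) for the branch, given as log2 fold changes, with edgeR adjusted p from 0.778 to 0.844.

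Of 18 genes of the HIF machinery 16 were tested, with 0 called, 6 negative and 10 positive values and a median of 0.11. Epas1 and Hif3a, the other alpha subunits, had 0 counts in all 6 libraries, so Hif1a was the only alpha subunit detected. Vhl, the ubiquitin ligase subunit that targets hydroxylated HIF-1α, had 28.5, 28.8 and 51.7 CPM in shNT and 22.7, 23.9 and 28.0 CPM in shIGF2BP1, lower without overlap (log2 fold change -0.55 ± 0.27 SE, edgeR adjusted p = 0.741). Its shNT replicate 3 library, the one that stood apart, was the highest, and without it the value was -0.21. Ep300, a coactivator, and Cul2, the ligase scaffold, had log2 fold changes of 0.45 and 0.26.

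A wider list of 49 other HIF targets, also chosen with earlier results of these data known, had 36 tested genes. Of these, 0 were called, with 22 negative and 14 positive values and a median of -0.18. At an unadjusted edgeR p under 0.05 there were 8 lower and 1 higher of the 36, beside 3.99% and 3.17% of all genes. Without overlap there were 7 lower and 1 higher, beside 5.59% and 6.06% of all genes. The rule named Kdm6b, Ddit4 and Gys1 among them. Kdm6b, a histone demethylase gene, had 125, 176 and 249 CPM in shNT and 60.9, 112 and 80.0 CPM in shIGF2BP1 (log2 fold change -1.12 ± 0.30 SE, edgeR adjusted p = 0.478). Ddit4, an inhibitor of mTORC1 signalling, had 101, 62.1 and 85.6 CPM in shNT and 35.3, 34.3 and 60.8 CPM in shIGF2BP1 (log2 fold change -0.93 ± 0.28 SE, edgeR adjusted p = 0.524). In both genes the groups did not overlap, by a narrow gap. Gys1, muscle glycogen synthase, had 79.0, 95.9 and 74.7 CPM in shNT and 51.3, 57.4 and 58.1 CPM in shIGF2BP1, with a clearer gap (log2 fold change -0.58 ± 0.19 SE, edgeR adjusted p = 0.586).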

How the data were processed

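Poly-A RNA of 3 shNT and 3 shIGF2BP1 libraries was sequenced as paired reads of 53 cycles with a stranded mRNA kit, per the labels' protocols. Per the submitters' processing notes, the tools were bcl2fastq, HISAT2 2.1.0 and HTSeq and the build was GRCm38. Strand setting and read filters were not given in the sources used here, nor was the annotation release. The deposited table holds whole-number read counts per gene, not normalised, in 43721 rows, of which 92 are spike-ins with 0 counts. GENCODE M21 symbols matched 42462 of 43629 gene identifiers, and the rest held 0.155% of counts.

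Counts were tested with edgeR 4.0.16 in R 4.3.3 (TMM, robust quasi-likelihood F test, two-sided, no covariates) over the 13445 genes kept by filterByExpr (minimum count 10, minimum total 15), with Benjamini-Hochberg adjustment over all of them and a threshold of 0.05. The common biological coefficient of variation was 0.29. CPM values use TMM factors, and per-kilobase levels divide them by the longest protein-coding transcript. Library totals were 30756389, 35373076 and 33385813 counts for shNT replicates 1 to 3 and 25119655, 34014482 and 27372822 for shIGF2BP1. Limits for 0 counts cover counting error only, as PCR copies of a molecule were not told apart. The fit was tested on simulated data with known changes. At an adjusted p under 0.05 edgeR recovered 26.6% of 64 genes changed 2-fold and 81.2% of 69 changed 4-fold. Of its 146 calls there, 7 were false.

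The members and lists were chosen with earlier results of these data known. Named were Igf2bp1, all 36 members, and up to 3 tested genes with the smallest unadjusted p from each of 5 further pathway lists. Genes of the marker lists, and others named as not overlapping or at 0, were named after their values were seen, and some marker genes are not reported here. Alternatives were RLE factors, library size only, no filter, mean CPM of at least 5, a replicate block, leaving out each library, DESeq2 1.42.0, limma-voom (limma 3.58.1) and a threshold of 0.01. Summed Schwann and glial markers (6 genes) were 11.7 to 12.7 CPM in shNT and 6.13 to 13.1 CPM in shIGF2BP1, and summed erythroid markers (4 genes) were 0.0294 to 0.0337 and 0 to 0.219 CPM. Summed sympathetic markers were 399.6 to 612 and 587 to 595 CPM.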

Additional observations from a re-analysis of the deposited data

How the results depend on the processing

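Members called at an adjusted p under 0.05 numbered 0 under every alternative run, with a smallest adjusted p of 0.159 (edgeR without shNT replicate 1). Members with an unadjusted p under 0.05 numbered 4 in the main fit, with DESeq2 and with RLE factors. They numbered 3 with library size only or limma-voom and 2 at mean CPM of at least 5. With no filter there were 10, with the replicate block 6 and with 1 library left out 0 to 9. Over all genes the 3 calls became 82 with DESeq2 (39 higher, 43 lower), 138 with no filter (84 lower, 54 higher), 18 with the replicate block (12 lower, 6 higher), 1 each with limma-voom, mean CPM of at least 5 or an adjusted p of 0.01, and 1 to 5 with 1 library left out. The number of negative glycolysis values was 11 to 19 of 22 with 1 library left out, lowest without shNT replicate 2.

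Deviations from the group means correlated at 0.23, -0.11 and 0.30 between same-numbered libraries, beside -0.33 to 0.15 for unlike numbers. The shNT replicates 1 and 3 correlated best with their own number and replicate 2 did not. Deviations from a group's own mean depend on each other, so these values cannot decide whether the libraries were paired. The labels do not say that equal numbers mark a shared batch, so the numbers were not taken as pairs. With the replicate block the glycolysis and HIF medians were -0.23 and -0.50.

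Of 658 values for 51 genes under the alternatives, 33 in 17 genes changed sign, all of them uncalled. Leaving out 1 library gave log2 fold changes of -1.24 to 0.76 for Igf2bp1, -0.42 to 0.10 for Slc2a1, -0.22 to 0.20 for Pfkl, -0.18 to 0.33 for Pfkm, -0.64 to 0.10 for Aldoa, -0.23 to 1.03 for Aldoc, -0.60 to 0.13 for Tpi1, -0.17 to 0.37 for Pgam1, -0.42 to 0.26 for Eno1, -0.34 to 0.22 for Pkm, -0.43 to 0.10 for Ldha, -0.21 to 0.032 for Pdk1, -0.28 to 0.12 for Egln1, -0.072 to 0.19 for Bnip3l, -0.86 to 0.017 for Car9, -0.13 to 0.28 for P4ha2 and -0.40 to 0.28 for Kdm3a. Igf2bp1 was -0.24 with limma-voom and -0.047 with the replicate block, Eno1 was 0.06 by library size and 0.005 at mean CPM of at least 5, and by library size Pkm was 0.035 and Pdk1 0.004. With no filter, Kdm6b (-1.11) and Ddit4 (-0.93) passed the threshold. The cause was not tested. The filter at mean CPM 5 left out Slc16a3, Car9, Ankrd37, Igf2bp1 and Slc2a5, which have no value there. With 3 libraries a group, differences of about 2-fold or less in single genes were mostly too small to be called at an adjusted p under 0.05.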
